A study of Mus musculus with 12 samples.

Results

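LY6D+ luminal cells of the mouse prostate were compared with LY6D- luminal cells of the same animals. The comparison rests on 4 of the 12 arrays of the series, chosen by their labels: 2 LY6D+ and 2 LY6D- luminal samples, 1 of each from mouse 4 and from mouse 5. The animals were wild-type, hormone-naïve males, and their ages were not given in the sources used here. All sorted cells were negative for CD45, CD31 and Ter119, the surface proteins of immune, endothelial and erythroid cells. The luminal gate held cells with low Sca1 and low CD49f, and it was divided by LY6D. The basal gate (intermediate Sca1, CD49f-positive, mice 3 and 5) and the Sca1-high gate (CD49f-positive, mice 1 and 5) were divided in the same way and served as comparators. Each group has 2 animals, and each sample came from 1 mouse per the labels. Values are log2 signals, so that a difference of 1 is a doubling. Values are listed as mouse 4 and then mouse 5, differences are LY6D+ minus LY6D- with moderated standard errors (SE), and tests are limma's moderated test with Benjamini-Hochberg adjustment over 20135 genes.

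The luminal layer of the prostate makes the secretions of the gland and is built on keratins 8 and 18, whereas basal cells lie beneath it and carry keratins 5 and 14 and the transcription factor p63. LY6D is a small GPI-anchored surface protein of the LY6 and uPAR family. In the mouse prostate it has been described as a marker of luminal cells with progenitor traits, which survive when androgen is removed. Such cells are found mostly in the proximal ducts, near the urethra, where luminal cells also make defence proteins such as lipocalin and carry the surface proteins TROP2 and PSCA.

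No gene passed an adjusted p of 0.05 between LY6D+ and LY6D- luminal cells (0 of 20135, limma), and the smallest adjusted p was 0.0727, for Xcl1. At an unadjusted p under 0.05 there were 716 genes, or 3.56% of those tested, 297 on the higher side in LY6D+ cells (1.48%) and 419 on the lower side (2.08%). The arrays of the 2 groups did not overlap for 3095 genes on the higher side (15.4%) and 2507 on the lower side (12.5%), together 27.8%. A difference of at least 1 in the same direction in both mice was seen for 243 genes (1.21%), 100 higher (0.497%) and 143 lower (0.71%). After renewed quantile normalization the split was 137 higher and 128 lower. Another 294 genes passed that size upward in mouse 4 and downward in mouse 5, and 39 did the reverse. Across genes the differences of the 2 mice had a Pearson r of -0.0779, as a description over genes, which are not independent replicates. With 2 samples a side an exact permutation test cannot go below a two-sided p of 0.333, and with 2 pairs a sign-flip test cannot go below 0.5. The count of 0 depended on single arrays: leaving out the LY6D- array of mouse 4 gave 70 genes, all lower in LY6D+ cells, the LY6D+ array of mouse 4 gave 7, all higher, and the LY6D+ array of mouse 5 or the LY6D- array of mouse 5 gave 2 each.

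**Figure D1:**
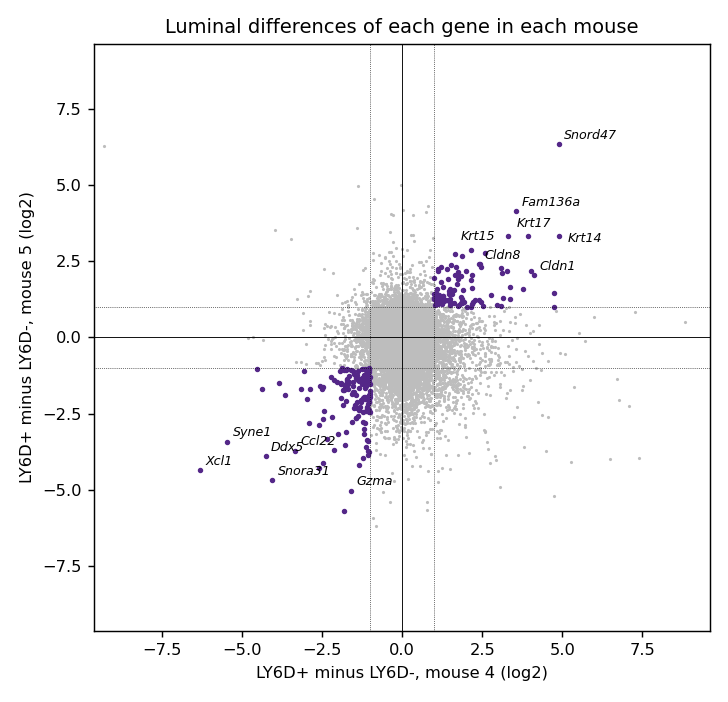
LY6D+ minus LY6D- difference (log2) of each of the 20135 genes in mouse 4 (horizontal axis) and in mouse 5 (vertical axis), with the 243 genes past 1 in the same direction in both mice in purple, dotted lines at 1 and -1, and some genes named. The basal keratins Krt14, Krt15 and Krt17 lie at the upper right and Xcl1 at the lower left, while the cloud as a whole has no shared slope (r = -0.0779).

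The luminal arrays resembled each other by mouse no more than across mice. The r across genes was 0.918 between the LY6D+ arrays, 0.873 between the LY6D- arrays, 0.907 and 0.898 between the groups within mouse 4 and mouse 5, and 0.907 and 0.892 for the pairs that share neither mouse nor group. The LY6D- array of mouse 5 had 17608 genes over the table's lower quartile, against 18555 to 18753 on the other luminal arrays. Without it 2 genes passed, and the adjusted p of Xcl1 was 0.00438 (limma). Values are given by mouse, so that those resting on this array can be seen. Outside the luminal gate, the LY6D+ Sca1-high array of mouse 5 had the lowest median r with the other arrays (0.841).

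Of the transcripts of the sorted proteins, Ly6d and Pecam1 did not separate the luminal groups, Itga6 was higher in LY6D+ cells without overlap, and Ptprc was lower within each mouse. None passed the test. Ly6d signal was 4.81 and 5.20 in LY6D+ cells and 5.11 and 4.61 in LY6D- cells. The arrays overlapped and the mice went opposite ways, with a difference of 0.14 ± 0.70 (adjusted p = 1.00, limma). On the other 8 arrays Ly6d lay between 4.70 and 7.37, so that none of the luminal arrays stood above them. Itga6, which encodes the alpha 6 integrin CD49f, was 6.77 and 7.01 in LY6D+ cells and 5.97 and 6.20 in LY6D- cells. Both LY6D+ arrays lay above both LY6D- arrays, by 0.81 ± 0.65 (adjusted p = 1.00, limma). Ptprc, which encodes CD45, was 4.04 and 6.91 in LY6D+ cells and 5.97 and 8.90 in LY6D- cells, against 3.25 to 4.53 on the other 8 arrays. It was lower in LY6D+ cells within each mouse, by 1.93 and 1.98, and on each side it was higher in mouse 5. Pecam1, which encodes CD31, was 4.43 and 5.73 against 5.53 and 5.03, with the mice in opposite directions. Ly6a, which encodes Sca1, was not analysed here.

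The luminal identity of the cells was checked on the keratins of that layer. Krt8 was 10.18 and 10.07 in LY6D+ cells and 9.63 and 10.57 in LY6D- cells, and its partner Krt18 was 10.82 and 10.31 against 10.53 and 11.14. The groups overlapped for both. Another probe set of Krt18 was lower in LY6D+ cells, at 9.62 and 7.69 against 10.76 and 10.57. The mean of the basal gate was 10.09 for Krt8 and lay within the range of the luminal arrays for both genes, so that these transcripts did not tell the luminal gate from the basal gate. Pbsn, the androgen-driven secretory protein probasin, was 12.99 and 12.79 in LY6D+ cells and 13.08 and 13.14 in LY6D- cells, against means of 9.59 in the basal and 11.28 in the Sca1-high gate. Probasin signal was thus high in both luminal groups.

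Among the listed genes, basal keratins had the largest differences on the higher side. Krt14, the type I keratin of the basal layer, was 9.87 and 10.31 in LY6D+ luminal cells and 4.98 and 6.99 in LY6D- luminal cells. The LY6D+ arrays lay at the level of the Sca1-high gate (mean 9.41) and below that of the basal gate (11.25), and the LY6D- arrays lay under every other array of the series (7.89 to 11.69). The difference was 4.11 ± 0.90 (adjusted p = 0.889, limma), or 17.2-fold. Krt17, a keratin of basal and injured epithelium, was 10.48 and 11.18 against 6.56 and 7.86, a difference of 3.62 ± 0.89. Krt15, a keratin of basal and stem cell layers, was 9.18 and 9.72 against 5.89 and 6.41, a difference of 3.31 ± 1.02, nearly the same in mouse 4 (3.30) and mouse 5 (3.31). Krt16, a keratin of activated squamous epithelium, was 6.32 and 6.95 against 3.04 and 4.77, a difference of 2.73 ± 0.75. Probes of related keratins can cross-react, which was not tested. Krt5 was covered only by a probe set shared with Krt6a and was not tested.

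Other basal genes were separated by less. Of 24 genes of the basal epithelial list, 22 were tested, 17 had a positive difference, 9 had both LY6D+ arrays above both LY6D- arrays and 0 the reverse, beside 15.4% and 12.5% over all genes, the shares against which the counts of the other lists also stand. The list median was 0.26, against 0.02 over all genes, and 0 members passed the test. Snai2, a transcription factor of basal and mesenchymal cells, was 7.40 and 6.65 against 5.65 and 4.73. Egfr, the receptor of epidermal growth factor, was 7.06 and 7.16 against 5.33 and 6.14, and Itga3, the alpha 3 integrin, was 7.11 and 8.99 against 6.41 and 6.81. Col17a1, a hemidesmosome collagen, was 5.83 and 6.04 against 4.71 and 5.19. Trp63, which encodes p63, was 4.81 and 4.78 against 4.65 and 3.94, a difference of 0.50 ± 0.30 and much smaller than that of the keratins. The mean signal of the 22 genes was 5.86 and 5.75 in LY6D+ cells, 4.90 and 4.98 in LY6D- cells and 6.20 to 7.34 on the basal arrays. These are bulk samples, in which more cells of a type and more RNA per cell cannot be told apart, and the part of basal cells in the result was not tested.

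**Figure D2:**
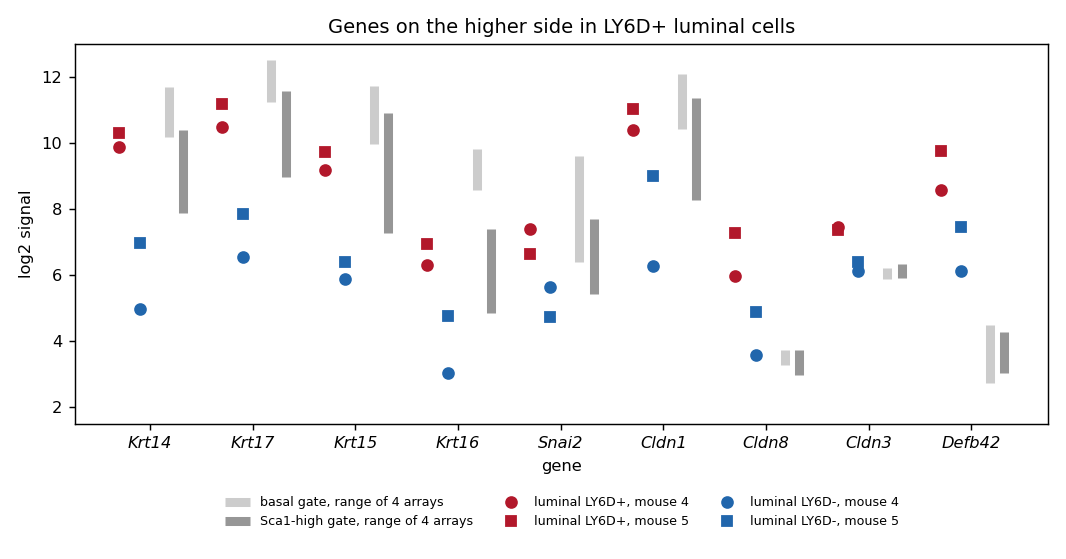
Log2 signal (vertical axis) of 9 genes in LY6D+ (red) and LY6D- (blue) luminal cells of mouse 4 (circles) and mouse 5 (squares), with bars for the range of the 4 basal and 4 Sca1-high arrays. For each gene both red points lie above both blue points, and for Cldn8, Cldn3 and Defb42 the LY6D+ luminal arrays also lie above both bars.

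Several claudin genes and E-cadherin also lay higher in LY6D+ cells, without passing the test. Cldn3, a tight junction claudin of luminal epithelium, was 7.45 and 7.37 in LY6D+ cells and 6.11 and 6.39 in LY6D- cells, a difference of 1.15 ± 0.23 (adjusted p = 0.844, limma). Its other 8 arrays lay between 5.89 and 6.34, so that the LY6D+ luminal arrays were the only ones above 7. Cldn8, a barrier-forming claudin, was 5.97 and 7.28 against 3.58 and 4.89, with the same difference of 2.39 in each mouse and 2.98 to 3.73 on the other 8 arrays. Cldn1, a claudin of basal and stratified layers, was 10.39 and 11.03 against 6.28 and 8.99, a difference of 3.08 ± 1.16 that was larger in mouse 4 (4.11) than in mouse 5 (2.04). Of 19 claudin and tight junction genes tested, 8 (42.1%, against 15.4% over all genes) lay higher without overlap and 2 (10.5%, against 12.5%) lower. The lower ones were Cgn, the junction plaque protein cingulin (4.90 and 4.81 against 6.68 and 5.41), and Cldn10 (4.72 and 4.93 against 5.37 and 5.32). Cdh1, which encodes E-cadherin, was 10.84 and 10.67 against 8.94 and 9.98, and its mean in the basal gate was 11.47. Epcam, an epithelial adhesion protein, and the claudin Cldn7 overlapped between the groups, with the mice in opposite directions. The luminal epithelial list, in which Cldn3 and Cdh1 stand, had 13 positive and 6 negative differences and a median of 0.09, which was 0.36 in mouse 4 and -0.10 in mouse 5.

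The 250 bases upstream of the start of Cldn3, a leading higher gene, and of Xcl1, the leading lower gene, are shown for orientation, 5′ to 3′ on the strand of each gene, as RefSeq gives them on GRCm38.p6. Of the 105 genes named by rule, 72 have such a window in the table. Searched on both strands were TATAAA (in 12.4% of the 32851 promoters of the same length), CCAAT (33.8%), TGANTCA (6.75%) and GGGCGG (32.7%), and capitals mark matches. Only GGGCGG matched, in Cldn3 on the opposite strand at bases 15 to 20 of the window, and no motif was found in the window of Xcl1. No array value bears on binding at either window.
Cldn3, chr5:134985964-134986213, plus strand: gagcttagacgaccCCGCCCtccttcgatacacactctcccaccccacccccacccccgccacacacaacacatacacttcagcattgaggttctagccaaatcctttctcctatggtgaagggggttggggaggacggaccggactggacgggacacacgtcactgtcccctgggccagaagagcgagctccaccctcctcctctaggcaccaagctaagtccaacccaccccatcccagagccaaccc
Xcl1, chr1:164935523-164935772, minus strand: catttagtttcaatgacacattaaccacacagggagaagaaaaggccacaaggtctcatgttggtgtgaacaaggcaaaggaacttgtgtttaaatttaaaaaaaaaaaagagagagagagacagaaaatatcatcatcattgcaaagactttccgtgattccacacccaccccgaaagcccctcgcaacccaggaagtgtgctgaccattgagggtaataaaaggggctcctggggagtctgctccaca

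Genes of proximal luminal and defence functions lay mostly on the higher side. Of 29 genes of the proximal luminal progenitor list, 27 were tested, 20 had a positive difference and 10 lay higher without overlap, with 0 lower and a median of 0.17. The mean signal of the list was 6.64 and 6.81 in LY6D+ cells and 6.09 and 6.63 in LY6D- cells. On the basal arrays it was 6.61 to 7.50, so that the list was not particular to luminal cells. Plaur, the urokinase receptor and a member of the same protein family as LY6D, was 7.81 and 8.64 in LY6D+ cells and 5.05 and 7.24 in LY6D- cells. Lcn2, the iron-trapping defence protein lipocalin 2, was 8.01 and 7.82 against 6.54 and 6.41, a difference of 1.44 ± 0.70. S100a6, a calcium-binding protein, was 11.41 on both LY6D+ arrays against 9.08 and 11.10, so that nearly all of its difference came from mouse 4. The means of the basal gate lay above these LY6D+ values, at 10.50 for Plaur, 8.72 for Lcn2 and 12.19 for S100a6. Defb42, a beta-defensin, was 8.57 and 9.77 against 6.12 and 7.45, and 2.74 to 4.48 on the other 8 arrays. Both luminal groups therefore stood above the other gates for Defb42, LY6D+ cells by more (difference 2.39 ± 0.61, adjusted p = 0.938, limma). Pigr, the receptor that carries immunoglobulin A into secretions, went the other way within each mouse, at 5.03 and 5.91 against 6.18 and 7.57. The mucosal defence list as a whole had 17 positive and 10 negative differences, 7 higher and 3 lower without overlap and a median of 0.17.

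Squamous genes and LY6 relatives had more positive than negative differences, with higher medians in mouse 5 than in mouse 4. The median over all genes was also higher in mouse 5 (0.14) than in mouse 4 (-0.08). Of 25 squamous differentiation genes tested, 20 had a positive difference, 8 lay higher without overlap and 1 lower, with a median of 0.28, which was 0.03 in mouse 4 and 0.54 in mouse 5. Serpinb5, the epithelial serpin maspin, was 7.58 and 6.14 against 3.90 and 5.37, and Lor, the cornified envelope protein loricrin, was 5.01 and 4.04 against 3.99 and 3.23. The means of the basal gate were 9.12 for Serpinb5 and 5.04 for Lor. The mean signal of the squamous list was 5.39 and 5.34 in LY6D+ cells and 5.04 and 4.87 in LY6D- cells. On the basal arrays it was higher, at 5.87 to 6.10. Emp1, an epithelial membrane protein, was the 1 on the lower side, at 10.05 and 9.61 against 10.40 and 10.86, but its other probe set overlapped between the groups with the mice in opposite directions. Of 35 tested genes of the LY6 and uPAR family, 26 had a positive difference and 14 lay higher without overlap, most by under 1 log2, and 2 lower. The list median was 0.20, at -0.10 in mouse 4 and 0.40 in mouse 5. The mice differed in sign here, as they did for the median over all genes. Past 1 log2 in both mice were Plaur on the higher side and Cd59a, a complement inhibitor, on the lower. Cd59a was 4.02 and 4.26 in LY6D+ cells and 6.63 and 7.15 in LY6D- cells, a difference of -2.75 ± 0.84 seen in both mice. The urothelial list had a median of 0.12, with Upk1a, a plaque protein of the bladder lining, at 9.57 and 9.36 against 9.30 and 9.16.

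The other genes with the smallest p on the higher side belong to no list. Fam136a was 5.99 and 6.80 in LY6D+ cells and 2.42 and 2.66 in LY6D- cells, a difference of 3.85 ± 0.54 (adjusted p = 0.244, limma), and 2.69 to 4.18 on the other 8 arrays. Zfp429, a zinc finger gene, was 6.10 and 6.65 against 3.67 and 4.24, and 2.95 to 4.33 elsewhere. For both genes the LY6D+ luminal arrays stood above every other array of the series. Ifnb1, which encodes interferon beta, was 4.94 and 6.05 against 3.74 and 3.75, while genes that respond to interferon did not go with it, as given below. Klk1b5, a tissue kallikrein of a family of near-identical genes whose probes may share signal, was 5.04 and 4.98 against 3.94 and 3.40. The 5 others were Treml4 (difference 1.43), 2310039H08Rik (1.94), Kiss1 (1.21), which encodes kisspeptin, Zfp1 (1.24) and Mir15a (2.51).

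Mir15a, the gene of a microRNA that restrains the cell cycle and BCL2, had signals of 5.92 and 6.41 in LY6D+ and 3.77 and 3.54 in LY6D- cells. The probe set is annotated to the gene and not to either mature arm. The arms are shown with the seed (bases 2 to 8) in capitals as RefSeq gives them on GRCm38.p6, minus strand, and the seeds of the arms differ.
mmu-miR-15a-5p, chr14:61632075-61632096: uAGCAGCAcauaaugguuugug
mmu-miR-15a-3p, chr14:61632038-61632059: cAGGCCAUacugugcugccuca
Cell cycle genes had a median difference of 0.04, with 3 of 29 higher and 3 lower without overlap. Mki67, a proliferation marker, was 3.77 and 3.73 against 3.94 and 3.95. The difference of Mir15a was 2.65 ± 0.56 in the basal gate, 2.51 ± 0.56 in the luminal gate and 0.10 ± 0.56 in the Sca1-high gate.

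On the lower side the leading gene was Xcl1, a chemokine made by natural killer and activated CD8 T cells that attracts dendritic cells. It was 4.38 and 4.39 in LY6D+ luminal cells and 10.69 and 8.75 in LY6D- luminal cells, and 3.79 to 4.66 on the other 8 arrays. The LY6D- luminal arrays thus stood alone, and the LY6D+ arrays lay within the range of the rest. The difference was -5.33 ± 0.55 (adjusted p = 0.0727, limma). With mouse as a random replicate block it passed, at an adjusted p of 0.0364, and with mouse as a fixed block it did not, at 0.153, where 0 genes were called and another gene had the smallest adjusted p (0.121). Its adjusted p lay between 0.00438 and 0.588 over 25 settings, and 5 of these called it.

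Other lymphoid genes were uneven between the mice. Of 29 listed genes 23 were tested, 18 had a negative difference, 9 lay lower without overlap and 3 higher, with a median of -0.60 in the groups, 0.01 in mouse 4 and -1.06 in mouse 5. Gzma, the killer cell protease granzyme A, was 3.29 and 3.27 in LY6D+ cells and 4.88 and 8.31 in LY6D- cells. Il2rb, a chain of the interleukin 2 and 15 receptors, was 4.46 and 3.81 against 5.53 and 7.55, and Nkg7, a granule protein of killer cells, was 5.13 and 4.92 against 6.25 and 5.98. These 3 genes were on the lower side in both mice by at least 1. Gzmb, granzyme B, was 3.78 and 3.19 against 4.03 and 7.89. The T cell genes Cd3e (4.68 and 4.07 against 4.63 and 7.14) and Cd3d (4.17 and 4.08 against 4.13 and 6.67) were high on the LY6D- array of mouse 5 and at the LY6D+ level on that of mouse 4. The mean signal of the 23 genes was 4.49 and 4.19 in LY6D+ cells, 4.89 and 5.82 in LY6D- cells and 3.82 to 4.42 on the basal and Sca1-high arrays. No member is at 0 on this scale, and 1 member was at or below the table's lower quartile on all 4 luminal arrays. The gate removed CD45-positive cells. Ptprc and the mean signal of the list were lower in LY6D+ cells within each mouse, whereas the list median was lower in mouse 5 only. The part of lymphoid cells in the result was not tested.

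**Figure D3:**
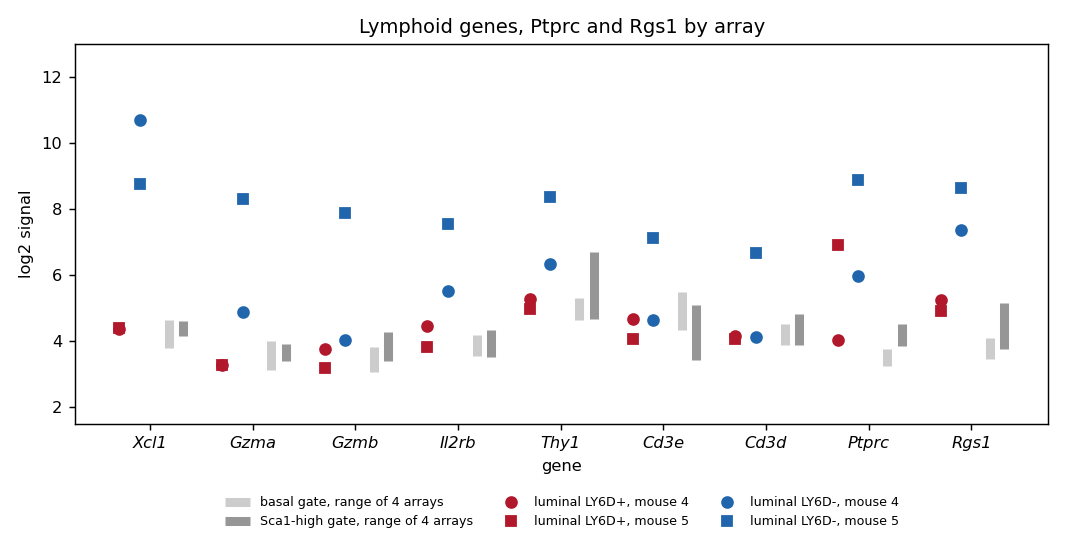
Log2 signal (vertical axis) of 9 genes in LY6D+ (red) and LY6D- (blue) luminal cells of mouse 4 (circles) and mouse 5 (squares), with bars for the range of the 4 basal and 4 Sca1-high arrays. Xcl1 is high on both LY6D- arrays, whereas Gzmb, Cd3e and Cd3d are high only on the LY6D- array of mouse 5.

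Rgs1, Cytip and the cytokine gene Il18, outside the lymphoid list, stood among the 12 with the smallest p on the lower side. Rgs1, a brake on chemokine receptor signalling in lymphocytes, was 5.24 and 4.91 against 7.37 and 8.62, a difference of -2.92 ± 0.50 (adjusted p = 0.581, limma). Cytip, a scaffold protein of leukocytes, was 3.56 and 3.59 against 5.32 and 6.69. Il18, an inflammatory cytokine, was 2.64 and 2.68 against 3.86 and 4.66. Its LY6D+ values lay under the table's lower quartile (2.98). Ccl22, a chemokine of dendritic cells and macrophages chosen after its values were seen, was 5.41 and 6.14 against 8.74 and 9.86. Myeloid genes as a list did not lean, with 14 positive and 15 negative differences and a median of -0.02. That median was 0.04 in mouse 4 and -0.31 in mouse 5. The mean signal of the myeloid list was 6.15 and 6.54 in LY6D+ cells and 6.06 and 7.07 in LY6D- cells. Both luminal groups thus stood above the basal arrays (4.13 to 4.66) and the Sca1-high arrays (4.51 to 5.70). Itgax, the dendritic cell integrin CD11c, was 3.33 and 3.37 against 4.19 and 4.71, whereas Lyz2, the macrophage lysozyme, was 8.39 and 9.06 against 8.05 and 8.71, and Cd68 was 10.48 on both LY6D+ arrays against 10.36 and 10.50. The chemokine Ccl4 went the other way, at 9.55 and 10.13 against 6.36 and 9.28, a difference carried mostly by mouse 4 (3.19, against 0.85 in mouse 5).

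Secretory genes did not lean one way as a list, and 0 passed the test. Gdpd1, a lipid phosphodiesterase of the secretory list, was 4.52 and 5.29 in LY6D+ cells and 7.41 and 6.99 in LY6D- cells, and 3.93 to 4.49 on the other 8 arrays. Its difference was -2.29 ± 0.32 (adjusted p = 0.244, limma). The LY6D- arrays lay well above the other gates, whereas the LY6D+ array of mouse 4 lay only just above them (4.52 against 4.49). Spink11, a gene of the serine protease inhibitor family, was 3.31 and 3.40 against 5.00 and 4.92. Of 30 secretory genes tested, 13 had a positive and 17 a negative difference, 5 lay higher and 6 lower without overlap, and the median of -0.12 was 0.10 in mouse 4 and -0.22 in mouse 5. Spink1, a secreted protease inhibitor, was 12.84 on both LY6D+ arrays against 13.07 and 13.13. Aldh1a1, a retinal dehydrogenase of the stem and progenitor list, was 4.13 and 5.58 against 7.46 and 6.39. Androgen receptor targets had 10 positive and 16 negative differences and a median of -0.14, and 6 of 26 (23.1%, against 12.5% over all genes) lay lower without overlap. These 6 were Pbsn, Elovl5, Mboat2, Pmepa1, Slc45a3 and Zbtb16, of which Slc45a3, a membrane transporter, was 5.09 and 4.86 against 5.43 and 5.25. Tmprss2, a membrane protease, was the 1 on the higher side, at 6.87 and 6.38 against 5.43 and 6.01.

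Metabolic and other genes completed the lower side. Me2, a mitochondrial malic enzyme, was 3.72 and 3.32 in LY6D+ cells and 5.72 and 6.51 in LY6D- cells, and 3.23 to 4.01 on the other 8 arrays. Like Xcl1, it lay above all other arrays on the LY6D- luminal arrays, with a difference of -2.59 ± 0.31 (adjusted p = 0.142, limma). Pde3b, a cyclic nucleotide phosphodiesterase, was 3.02 and 3.22 against 4.43 and 5.34. Myh11, the smooth muscle myosin heavy chain, was 5.01 and 4.87 against 6.16 and 6.47, while the smooth muscle list had 4 positive and 10 negative differences and a median of -0.18. The 3 others were Fam174a (difference -1.57), Olfr1487 (-2.05) and Preb (-1.54), a factor of vesicle export from the endoplasmic reticulum. Fibroblast genes lay lower without overlap for 8 of 21 (38.1%, against 12.5% over all genes) and higher for 3, near the 15.4% over all genes. Sparc, a matrix protein, was 7.45 and 7.36 against 8.11 and 9.22, and Col1a2, a chain of type I collagen, was 4.88 and 5.01 against 5.77 and 7.90 on its brighter probe set, whereas its other set differed by -0.17 with the mice in opposite directions. Dcn, the proteoglycan decorin, was 10.03 and 10.34 against 8.65 and 9.94.

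The interferon and unfolded protein lists leaned to the lower side. Of 25 interferon response genes 8 lay lower without overlap and 0 higher, with a median of -0.52, which was -0.24 in mouse 4 and -0.62 in mouse 5. Stat2, a transcription factor of the interferon response, was 3.82 and 3.96 against 4.22 and 5.72, and Ifit2 was 3.53 and 4.35 against 4.56 and 4.94. Of 26 genes of the endoplasmic reticulum and unfolded protein response 7 lay lower without overlap and 0 higher, with a median of -0.20. Here the mice differed in sign, at 0.26 in mouse 4 and -0.67 in mouse 5. Creld2, a stress-induced chaperone, was 6.77 and 6.35 against 7.34 and 7.97, and Manf, a secreted protein of the same response, was 4.62 and 4.79 against 5.19 and 6.14. Antigen presentation genes had 15 negative and 2 positive differences, led by H2-Eb1, a class II chain (6.77 and 7.55 against 7.77 and 9.30).

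**Figure D4:**
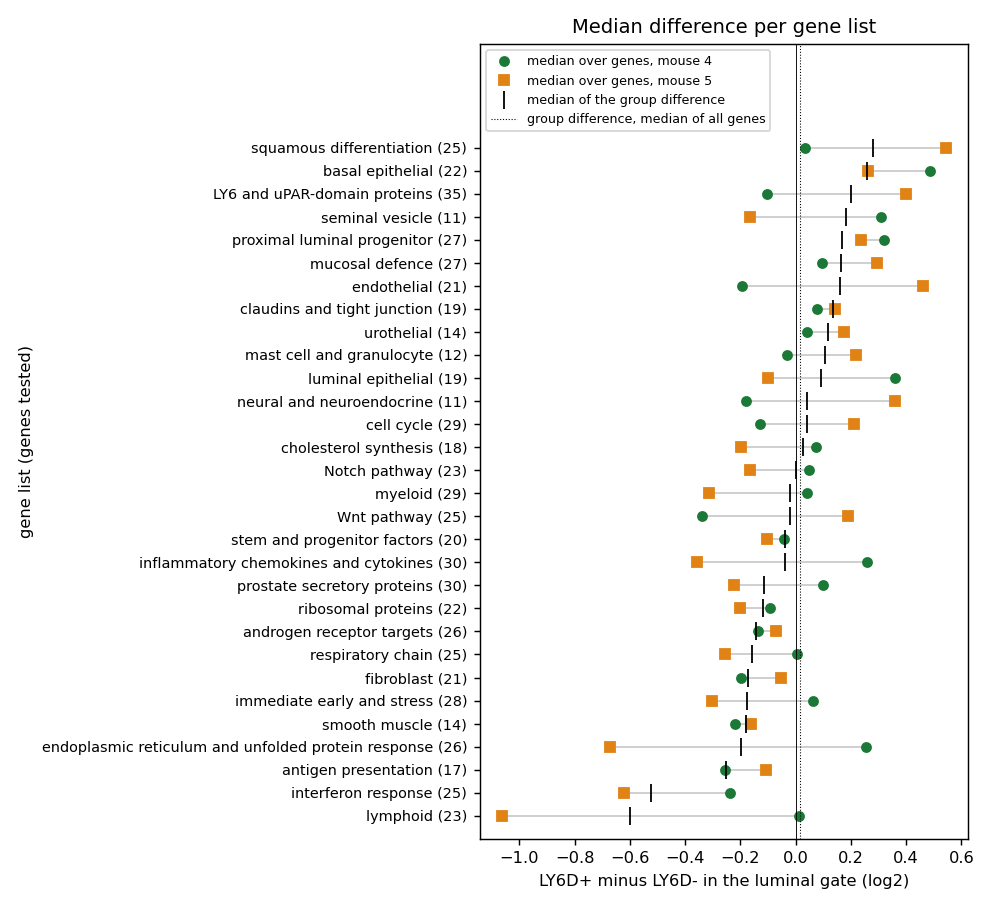
Median LY6D+ minus LY6D- difference (log2, horizontal axis) over the tested genes of each list in mouse 4 (circles), mouse 5 (squares) and the groups (bars), for the 30 lists with at least 5 tested genes. The squamous and basal lists have the highest group medians (0.28 and 0.26) and the lymphoid and interferon lists the lowest (-0.60 and -0.52), and for lymphoid genes the mice lie far apart.

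The Notch, Wnt and cholesterol synthesis lists had medians near that of all genes (0.02), at 0.00, -0.02 and 0.03. The medians of the respiratory chain (-0.16) and of ribosomal proteins (-0.12) lay lower. Of 22 ribosomal protein genes 17 had a negative difference, and 6 (27.3%, against 12.5% over all genes) lay lower without overlap. Lfng, a glycosyltransferase of Notch receptors, was 4.88 and 4.69 against 5.29 and 6.45, and Lef1, a transcription factor of the Wnt pathway and of T cells, was 4.46 and 4.51 against 5.12 and 5.38. Endothelial genes had a median of 0.16, which was -0.19 in mouse 4 and 0.46 in mouse 5, against -0.08 and 0.14 over all genes. Of 21 tested, 4 lay higher without overlap (19.0%) and 2 lower (9.52%). Erg was 4.49 and 4.55 against 3.80 and 3.84, and Gpihbp1 was 5.18 and 4.92 against 4.53 and 4.34. Cdh5, the endothelial cadherin, went the other way, at 4.39 and 4.52 against 5.31 and 5.52. The mean signal of the endothelial list on the luminal arrays was 4.32 to 4.65. Seminal vesicle genes had a mean signal of 10.22 and 9.98 in LY6D+ cells and 9.93 and 10.06 in LY6D- cells, and the groups overlapped. That mean was 5.68 to 9.54 on the basal and 6.11 to 8.67 on the Sca1-high arrays. Whether tissue of the neighbouring gland was carried over was not tested.

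No gene passed the test of a different LY6D effect in the luminal gate than in the basal gate (0 of 20135, smallest adjusted p = 0.326, limma; 494 at an unadjusted p under 0.05, or 2.45%) or in the Sca1-high gate (0, smallest adjusted p = 1.00; 587, or 2.92%). Mouse 5 gave arrays to all 3 gates. Krt14 differed by 0.84 ± 0.90 in the basal gate and -0.54 ± 0.90 in the Sca1-high gate, against 4.11 ± 0.90 in the luminal gate. Xcl1 differed by 0.19 ± 0.55 and -0.18 ± 0.55 in these gates, so that the luminal difference minus the basal one was -5.53 ± 0.78 (adjusted p = 0.326). For Fam136a the luminal difference minus the basal one was 4.33 ± 0.77. The small p of some genes came from the other gates. Snora33, a small nucleolar RNA, differed by 4.04 ± 0.42 between the basal groups and -0.20 ± 0.42 between the luminal ones, and Spinkl, a seminal vesicle protein, by -6.49 ± 1.04 in the Sca1-high and 0.34 ± 1.04 in the luminal gate.

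The largest differences shared by both mice, chosen after their values were seen, included small nucleolar RNAs and single probe sets with wide spread elsewhere. Snord47 was 6.55 and 10.17 against 1.65 and 3.83, and lay between 1.80 and 8.62 on the other 8 arrays. Snora31 was 2.39 and 1.54 against 6.44 and 6.23, and Ddx5, an RNA helicase, 3.10 and 2.91 against 7.37 and 6.81, with other arrays from 1.85 to 8.46 and from 3.20 to 9.64. These genes vary as much between arrays of the other gates as between the luminal groups. Itga2, the alpha 2 integrin of collagen receptors, was 7.01 and 7.40 against 4.41 and 4.63, and it too ranged widely on the other 8 arrays, from 4.26 to 10.06. Rab1b, a GTPase of vesicle transport, was 4.83 and 4.74 against 7.42 and 9.04, above the 3.98 to 6.47 of the other 8 arrays on both LY6D- arrays. Ppp2ca, a phosphatase subunit, was 5.93 and 6.89 against 8.85 and 9.71 on its brightest probe set, whereas its other probe sets differed by only -0.36 and -0.62.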

How the data were processed

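RNA of sorted cells was purified with a column kit and amplified and labelled with the NuGEN Ovation system, per the labels' protocols. The authors deposited 1 log2 value for each probe set and array, made with RMA and the oligo package per the submitters' processing notes. Versions and settings are not given in the sources used here, and the values were used as they stand. No detection p was used, and the number of arrays limits the precision.

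Of 41345 probe sets, 23521 had a single gene symbol, covering 22180 genes. The brightest set of a gene was kept, and 20135 genes with at least 2 arrays over the table's lower quartile (2.98) were tested. The fits used limma 3.58.1 with R 4.3.3 (1 mean for each of 6 groups over 12 arrays, 6 residual and 3.28 prior degrees of freedom), with Benjamini-Hochberg adjustment at 0.05, and were tested on simulated data. The mouse number in the titles pairs arrays of 1 animal. It was left out of the main model and used as a fixed or random block in alternatives. After removal of group means the paired luminal arrays correlated at 0.0220.

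Named were the sort genes, the 12 smallest p each way among genes whose luminal arrays did not overlap, whose higher group mean reached the median of the table (3.90) and that moved the same way in both mice, up to 3 members of each list by size of difference, and 5 genes each way for each difference between gates. Other list members were named as identity or cell type markers. The members, lists and rules were chosen with earlier results of these data known, and lists overlap in places (Plaur, Lcn2, Thy1, Cd59a and others stand in more than 1).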

Additional observations from a re-analysis of the deposited data

Results flagged for a closer look

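Among 28 leading genes and 30 gene lists, 10 genes and 3 lists had both luminal mice on one side of 0 and both mouse pairs of another gate on the other side. For the genes the difference between gates was tested with limma and none passed (smallest adjusted p 0.326). For the lists it was not tested. The genes were picked as sort genes or by their luminal p. The share of all genes with this pattern was not computed, so the counts are a description and not a result about these genes.

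Against the basal gate, the genes on the higher side in LY6D+ luminal cells were Fam136a (luminal difference 3.85), Ifnb1 (1.75), Klk1b5 (1.34), Zfp1 (1.24) and the claudin gene Cldn3 (1.15). Those on the lower side were Rgs1 (-2.92), Me2 (-2.59), Cytip (-2.43), Spink11 (-1.61) and Il18 (-1.60). In the basal gate the differences of these 10 genes were smaller in both pairs, as for Fam136a at -0.17 and -0.79 and Me2 at 0.60 and 0.36. Against the Sca1-high gate the same held for Ifnb1, at -0.41 and -0.04 in its pairs, and Il18, at 0.08 and 0.21.

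Smooth muscle genes had a luminal median of -0.18, against 0.08 and 0.21 in the basal pairs and 0.01 and 0.15 in the Sca1-high pairs. Mucosal defence genes had a luminal median of 0.17, against -0.07 and -0.18 in the Sca1-high pairs. Ribosomal protein genes had a luminal median of -0.12, against 0.63 and 0.02 in the basal pairs.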

How the results depend on the processing

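The count of 0 genes between LY6D+ and LY6D- luminal cells was kept with mouse as a fixed replicate block, with only the luminal arrays, with arrays centred or quantile normalized again, under both other filters and with the mean of a gene's probe sets. It became 1 (Xcl1) with mouse, or gate and mouse, as a random replicate block (adjusted p = 0.0364 and 0.0310, limma), and 2 (Xcl1 and Me2) with trend and robust settings; the cause was not tested. Leaving out 1 array gave 0 to 70 genes. Without the LY6D- array of mouse 4 the 70 included Gzma, Gzmb and Cd3d, and the lone LY6D- array of mouse 5 is then assumed to vary like the other groups. The tests of a different effect gave 0 to 11 genes against the basal gate and 0 to 7 against the Sca1-high gate when 1 array was left out, highest without the same array. Without 3 arrays of mouse 5 (both basal arrays and the LY6D+ Sca1-high array), chosen after seeing the data, these counts were 0, 0 and 1 (Rps12-ps24).

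Genes past a fixed size in both mice numbered 1233 at 0.5 log2 and 32 at 2 log2, and 215 to 265 under other processing at 1. Of the differences of 105 named genes, 2498 values over the alternatives kept direction and side, 13 passed the threshold newly and 5 reversed: Rpl3 was -0.20 with the mean of its probe sets in place of 1.85, Pecam1 was 0.45 and 0.05 without the LY6D+ or LY6D- array of mouse 4, and Ly6d was -0.05 and -0.11 without the LY6D+ or LY6D- array of mouse 5. With 1 luminal array left out, Pecam1 ranged from -0.85 to 0.45 and Ly6d from -0.11 to 0.39. List medians stayed within their spread in 246 cases and moved in 33. Centring and renewed quantile normalization shifted the median of all genes by -0.03 and -0.01.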

Other observations

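Probe sets with no or several gene symbols were examined apart. Of 13937 tested, 0 passed between LY6D+ and LY6D- luminal cells (smallest adjusted p = 0.0751, limma), and 542 had an unadjusted p under 0.05.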
